A study of Mus musculus with 4 samples.

Results

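The tissue inhibitors of metalloproteinases, Timp1 to Timp4, and the membrane-anchored inhibitor Reck were followed in mouse bone marrow stromal cells after Cre was delivered to a floxed Setd2 gene. The family was taken by gene symbol from the deposited count table. All 5 members had a row among its 44788 genes, and 4 of them passed the filter on low counts that left 14483 genes for testing. The cells came from Setd2 fl/fl mice of strain C57BL/6J and were used at passage 2. They received a lentivirus with GFP, the control that the labels call WT, or one with Cre recombinase, labelled the Setd2 knockout, and were held in puromycin at 2 µg/ml for 4 days. All groups carried the floxed alleles, a lentivirus and the drug selection, and each virus had 2 libraries. Which promoter drove Cre is not given in the sources used here. With GFP as the only control, loss of Setd2 and the presence of Cre cannot be told apart. Whether the 2 libraries of a virus stem from different cultures or animals is not labelled. The p-values thus reflect library-to-library spread alone, drawn largely from all genes together, and possibly only technical spread.

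Metalloproteinases cut collagens, proteoglycans and other matrix proteins, and shed growth factors and receptors from the cell surface. Timp proteins are small secreted inhibitors that block the active site of these enzymes through their amino-terminal domain. Timp1 and Timp2 stay soluble, and Timp2 also takes part in the activation of pro-Mmp2 by Mmp14 at the cell surface. Timp3 binds to the extracellular matrix and inhibits several ADAM and ADAMTS enzymes as well as matrix metalloproteinases. Reck is tethered to the plasma membrane by a lipid anchor and is also a cofactor for Wnt7 signalling with the receptor Adgra2. Bone marrow stromal cells, the source of osteoblasts and adipocytes, lie in a collagen-rich matrix that these inhibitors help to preserve.

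Library totals lay between 12371994 and 14315903 counts. Counts of Setd2, the targeted gene, were 1400 and 1250 with GFP against 551 and 468 with Cre, so that the level in each of them matched its label. At an adjusted p under 0.05 edgeR called 1009 of 14483 genes (6.97%), of which 542 were higher (3.74% of those tested) and 467 lower (3.22%) with Cre. Scaling by library size alone gave 349 higher and 183 lower. GFP replicate 2 stood apart in ribosomal RNA: the 18S gene Rn18s-rs5 took 7.45% of its counts, against 1.21% to 2.07% in the other libraries. All 10 stromal markers were detected, of which 3 rose and 1 fell, with summed levels of 15450 to 15570 CPM in GFP and 19390 to 20420 CPM in Cre. CPM is the read count normalized to the scaled library size. The collagen genes Col1a1 and Col1a2 both rose. Without them, the other 8 summed to 1490 to 1550 CPM in GFP and 1343 to 1368 CPM in Cre. Of these 8, Thy1 rose (7.73 to 11.77 CPM) and Cxcl12 fell (660.4 to 542.9 CPM). The 10 macrophage markers were detected too, at 2005 to 2059 CPM in GFP and 2354 to 2367 CPM in Cre, and 4 of them rose and 1 fell. Most of this sum was Lyz2, which rose from 1396 to 1688 CPM. Adgre1 (listed as Emr1) was the macrophage marker that fell, from 195.8 to 159.5 CPM. In the same libraries the 6 endothelial markers summed to between 10.02 and 12.16 CPM.

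Timp3 was the member that changed, and it fell. Of the 4 tested members 1 fell and none rose, where 3.22% of all tested genes were lower. Its counts were 59672 and 51703 with GFP and 38813 and 36680 with Cre, or 4534, 4396, 2682 and 2531 CPM. The Cre libraries lay far below the GFP libraries, and the gap between the groups was many times the distance within either group. The mean went from 4465 ± 97.9 to 2606 ± 107 CPM (SD, n = 2 each), so that 58.4% of the control level remained. In edgeR's quasi-likelihood test the log2 fold change was -0.78 with a standard error of 0.06 and an adjusted p of 1.95e-10. The 95% interval of the ratio of Cre to GFP ran from 0.536 to 0.635. In bulk libraries, fewer cells that express Timp3 and less Timp3 RNA per cell cannot be told apart.

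Timp3 was among the genes with most reads and smallest p-values. By mean CPM, not divided by length, it ranked 17 among the 14483 tested genes, and by p-value it ranked 8. An absolute fold change at least as large was seen in 2.13% of tested genes. Among the 1009 genes that passed the test, its fold change ranked 121 by size. Leaving out either GFP library ended the call while the size stayed close: -0.75 without GFP replicate 1 (edgeR adjusted p = 0.0524) and -0.80 without GFP replicate 2 (edgeR adjusted p = 0.124). In these fits 12 and 0 genes passed in all, and 2154 and 2197 genes had an unadjusted p under 0.05. The loss without GFP replicate 2 applies to every gene named above or below as risen or fallen, and to Setd2. The log2 fold change of Setd2 was -1.59 in that fit.

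**Figure D1:**
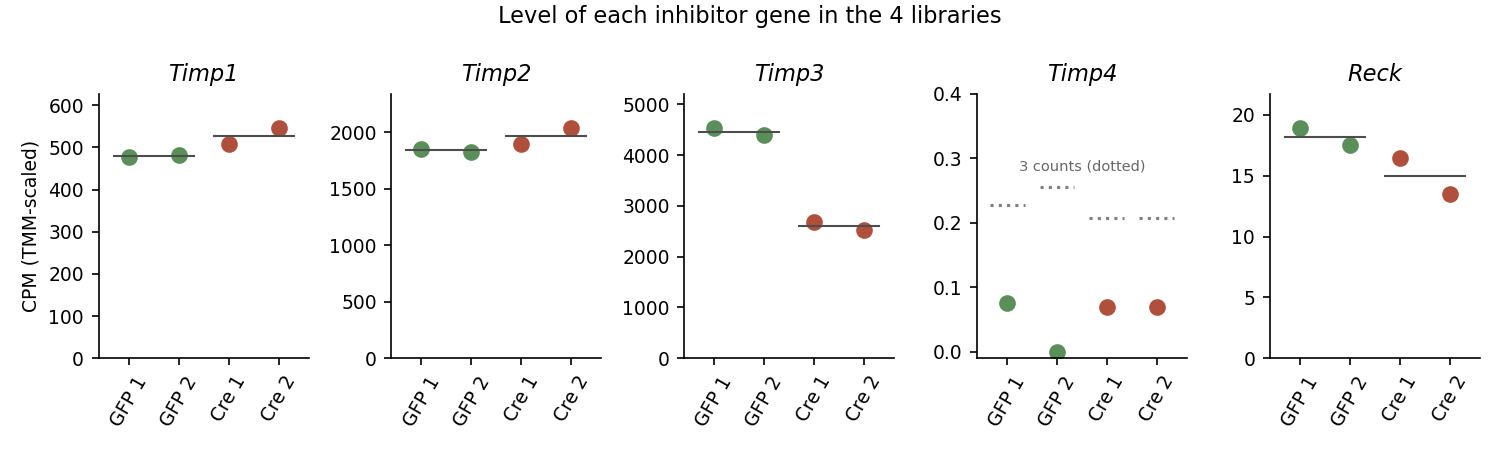
Level of each member in CPM (vertical axis, linear, own scale in each panel) in the 2 GFP libraries (green) and the 2 Cre libraries (red); horizontal lines are group means, and dotted lines in the Timp4 panel mark 3 counts. Timp3 lies at 4534 and 4396 CPM in GFP and at 2682 and 2531 CPM in Cre, while Timp1 and Timp2 lie slightly higher in Cre and Reck slightly lower.

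Timp1, which besides its inhibitor role binds the tetraspanin Cd63, did not pass the test. Counts were 6291 and 5667 with GFP and 7355 and 7911 with Cre, or 478.0, 481.8, 508.2 and 545.9 CPM. Both Cre libraries were above both GFP libraries, as was the case for 24.5% of all tested genes. The means were 479.9 ± 2.68 and 527.0 ± 26.6 CPM (SD, n = 2 each). The log2 fold change was 0.14 with a standard error of 0.06 (edgeR adjusted p = 0.214). The 95% interval of the ratio ran from 1.00 to 1.20 before adjustment over genes.

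Timp2, the partner of Mmp14, did not pass either. Its counts were 24417 and 21528 in GFP and 27483 and 29540 in Cre, which gave 1855, 1830, 1899 and 2038 CPM. The groups again did not overlap, but the lower Cre library was closer to both GFP libraries than to the other Cre library. The log2 fold change was 0.10 with a standard error of 0.06 (edgeR adjusted p = 0.403), and the 95% interval of the ratio ran from 0.979 to 1.17. The log2 fold changes of Timp1 and Timp2 were as low as 0.08 and 0.04 without Cre replicate 2, and as high as 0.19 and 0.15 without Cre replicate 1.

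Reck was expressed at a much lower level and also failed the test. Counts were 249 and 206 with GFP and 238 and 195 with Cre, or 18.92, 17.52, 16.44 and 13.46 CPM. The raw counts of the groups overlapped, and after scaling both Cre libraries were below both GFP libraries, as in 25.5% of tested genes. The log2 fold change was -0.29 with a standard error of 0.12 (edgeR adjusted p = 0.138). The 95% interval of the ratio ran from 0.695 to 0.966 before adjustment over genes. Without Cre replicate 2 the value was -0.15, and without Cre replicate 1 it was -0.43.

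Timp4, the member known best from heart and brain, was barely detected, with counts of 1 and 0 under GFP and 1 and 1 under Cre. All 4 values lie below 3 counts, the floor used here, which corresponds to 0.207 to 0.255 CPM. No difference could be measured at this depth, and no fold is given.

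**Figure D2:**
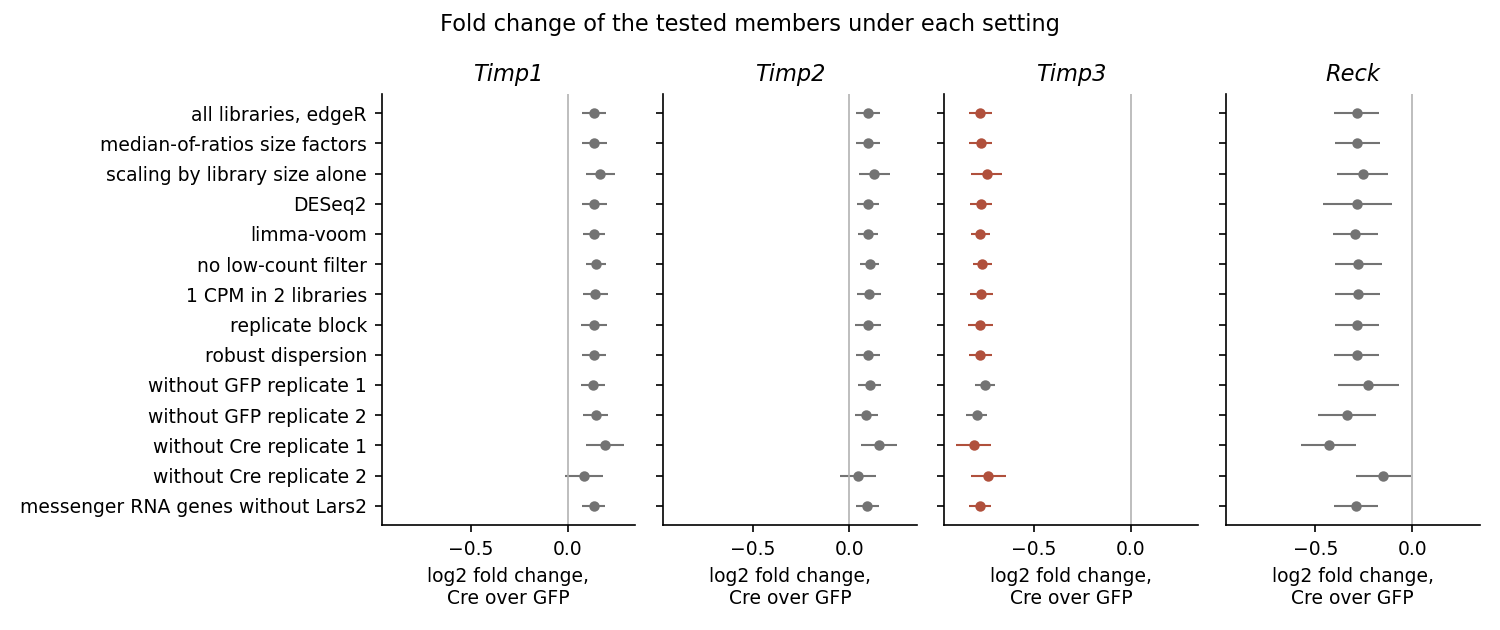
The log2 fold change of Cre over GFP (horizontal axis, the same in each panel) for the 4 tested members under each setting, with bars of 1 standard error; red marks an adjusted p under 0.05. Timp3 stays between -0.81 and -0.74 and loses its call without either GFP library, while Timp1, Timp2 and Reck pass under none of the settings.

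Compared per length of transcript, Timp3 was the leading inhibitor in control cells, and after Cre it lay close to Timp1 and Timp2. Lengths were those of the transcript with the longest coding part in GENCODE M21: 883 bases for Timp1, 3709 for Timp2, 4722 for Timp3 and 4433 for Reck. On the scale of CPM per kilobase, Timp3 was at 960.3 and 931.0 in GFP and at 567.9 and 536.0 in Cre. Timp1 was at 541.4 and 545.7 in GFP and at 575.5 and 618.2 in Cre. Timp2 was at 500.3 and 493.5 in GFP and at 512.0 and 549.6 in Cre. The order in GFP was thus Timp3, Timp1, Timp2, Reck (mean 4.11) and Timp4, with no overlap of libraries. In Cre, Timp1 was first, Timp3 and Timp2 overlapped, and Reck (mean 3.37) and Timp4 stayed last. This order depends on the gene model. With all annotated exons of a gene merged, Timp3 has 8144 bases. Its level in GFP was then 548, close to the 540 of Timp1, and its level in Cre of 320 was below the 594 of Timp1 and the 505 of Timp2.

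The make-up of the family within a library does not depend on scaling between libraries. Timp3 held 47.97% and 47.25% of the summed Timp counts per kilobase in GFP and 34.31% and 31.46% in Cre. The share of Timp1 went from 27.04% and 27.70% to 34.77% and 36.28%. That of Timp2 went from 24.99% and 25.05% to 30.93% and 32.26%. The groups did not overlap in any of the 3 shares. Which of Timp1 and Timp2 gained more depends on length: the gains of 8.16 and 6.57 percentage points became 3.26 and 11.4 with counts not divided by length. With 2 libraries against 2, an exact two-sided permutation test cannot give a p below 0.333, so these shares are a description. The shares add to the whole, and each moves when any of them does. The log2 ratio of Timp3 to Timp2 counts was 1.29 and 1.26 in GFP and 0.50 and 0.31 in Cre. The ratio of Timp2 to Timp1 counts went from 1.96 and 1.93 to 1.90 and 1.90 on the log2 scale. The summed Timp level was 2002 and 1970 CPM per kilobase in GFP and 1655 and 1704 in Cre.

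**Figure D3:**
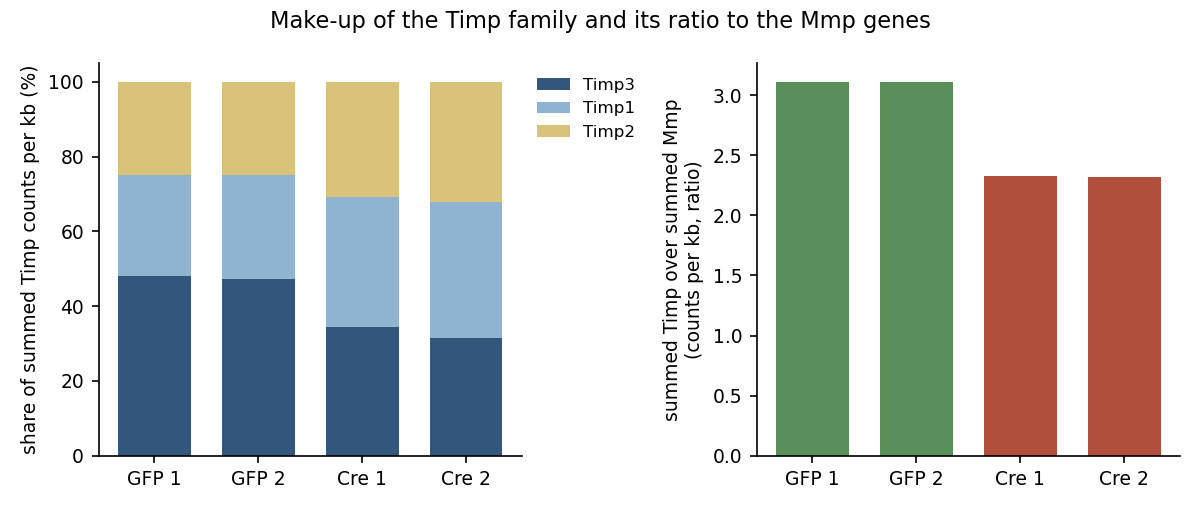
Left, share of Timp3, Timp1 and Timp2 in the summed Timp counts per kilobase of each library (percent); right, ratio of the summed Timp to the summed Mmp counts per kilobase. Timp3 takes 47.97% and 47.25% in GFP and 34.31% and 31.46% in Cre, and the ratio is 3.11 in both GFP libraries and 2.33 and 2.32 in the Cre libraries.

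Timp1, Timp3 and Timp4 are nested in synapsin genes, which matters for reads counted without strand. Timp1 lies on chromosome X from 20870166 to 20874735 on the plus strand (GRCm38), inside Syn1 on the minus strand. Timp3 lies on chromosome 10 from 86300372 to 86349506 on the plus strand, inside Syn3 on the minus strand. Timp4 lies on chromosome 6 from 115241892 to 115252205 on the minus strand, inside Syn2 on the plus strand. Timp2 lies on chromosome 11 from 118301069 to 118355740 on the minus strand and encloses Cep295nl, known before as Ddc8, on the same strand. Reck lies on chromosome 4 from 43875530 to 43944806 on the plus strand. Synapsins coat synaptic vesicles, and their genes were low here. Syn3 had 24, 35, 30 and 29 counts in GFP replicates 1 and 2 and Cre replicates 1 and 2. Syn1 had 127, 139, 163 and 162 counts, Syn2 had 2, 1, 5 and 4, and Cep295nl had 86, 93, 112 and 104. None of the 3 that could be tested passed, with log2 fold changes of 0.07 for Syn1, -0.22 for Syn3 and 0.05 for Cep295nl (edgeR adjusted p = 0.820, 0.713 and 0.894). Exons of Syn3 cover 21.3% of the merged exon bases of Timp3, and those of Syn2 cover 1.53% of Timp4. Without a known strand setting, reads in these shared bases cannot be assigned to one gene. Exons of Timp1, Timp2 and Reck were shared with no other gene.

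The starts of Timp3, the member that fell, and of Timp1, which did not pass the test, are shown side by side, as the 250 bases before the RefSeq start on GRCm38.p6, read 5′ to 3′ on the strand of the gene. Capitals mark the GC box GGGCGG, the site of Sp factors, and the CCAAT box, on either strand. The window of Timp1 is chrX:20869916-20870165 and that of Timp3 is chr10:86300162-86300411, both on the plus strand. GENCODE M21 places the start of Timp3 inside its window, ahead of the marked GC box. It places the start of Timp2 upstream of the Timp2 window, which thus lies within the gene on that model.
Timp1: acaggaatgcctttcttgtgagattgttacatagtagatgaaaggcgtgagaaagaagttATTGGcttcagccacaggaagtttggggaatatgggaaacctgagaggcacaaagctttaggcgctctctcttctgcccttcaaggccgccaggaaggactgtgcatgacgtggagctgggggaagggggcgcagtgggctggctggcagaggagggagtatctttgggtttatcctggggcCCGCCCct
Timp3: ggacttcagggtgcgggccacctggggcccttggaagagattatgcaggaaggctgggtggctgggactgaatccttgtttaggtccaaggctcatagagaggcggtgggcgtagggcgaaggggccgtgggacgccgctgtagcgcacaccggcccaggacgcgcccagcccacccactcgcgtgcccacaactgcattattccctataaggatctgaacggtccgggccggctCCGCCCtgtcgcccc
The Timp3 window was rich in G and C (65.6%) and held 18 CpG pairs, and the Timp1 window had 54.4% and 6 CpG pairs. Over 32851 windows of the same length the medians were 52.4% and 6 pairs. The windows of Timp2 and Reck resembled that of Timp3, with 68.0% and 68.4% G and C and 21 and 19 CpG pairs, and that of Timp4 had 2. The GC box occurred in Timp1 at -8 to -3, in Timp2 at -37 to -32, in Timp3 at -15 to -10, and at 2 places in Reck, where the last base before the start is -1. Of all windows, 32.7% held it. The CCAAT box occurred in Timp1, Timp2 and Reck and in 33.8% of all windows. The AP-1 site TGANTCA (6.75% of windows) and the TATA box TATAAA (12.4%) were in none of the 5 windows. These matches are letters only, since no binding was measured.

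Of the matrix metalloproteinases, the main targets of the Timp proteins, most did not pass and those that did went both ways. Of 23 listed genes 15 were tested, 3 rose and 2 fell (33.3% called, against 6.97% of all tested genes), and the median log2 fold change was -0.0075 against -0.0045 over all tested genes. Mmp12, the macrophage elastase, rose from 103.5 ± 3.67 to 177.2 ± 2.51 CPM (log2 fold change 0.78, edgeR adjusted p = 7.79e-10). The membrane-anchored Mmp17 rose by 0.58 and Mmp23 by 0.51 on the log2 scale. Mmp16, a membrane-type enzyme that can activate pro-Mmp2, fell from 13.20 ± 1.05 to 7.04 ± 0.677 CPM (-0.90). The gelatinase gene Mmp9, named to complete the count after its values were seen, fell by 0.46 on the log2 scale, and by 0.14 without GFP replicate 2, in which it was highest. It was not called by DESeq2 or with scaling by library size alone. The macrophage marker sum, mostly Lyz2, was also higher in Cre. Of its 10 genes Lyz2, Cd68, Tyrobp and Mrc1 were called higher, Adgre1 was called lower, and the rest had no call. The part of macrophages in the values of Mmp12 and Mmp9 was not tested.

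Mmp14 and Mmp2 made up most of the metalloproteinase transcripts. Together they held 78.4% of the summed Mmp level per kilobase in GFP and 75.4% in Cre. Mmp14, the collagenase of the cell surface, had 683.4 ± 40.0 and 716.4 ± 12.9 CPM (log2 fold change 0.07, edgeR adjusted p = 0.597). Mmp2, the gelatinase that Timp2 and Mmp14 help to activate, had 729.2 ± 17.6 and 827.4 ± 24.9 CPM (0.18, edgeR adjusted p = 0.0742). It passed in limma-voom, with robust dispersion estimates and on messenger RNA genes alone. Mmp1a, Mmp1b, Mmp7 and Mmp20 had no count in any library.

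The ratio of inhibitor to protease transcripts was lower in both Cre libraries. Per kilobase, the Timp genes summed to 3.11 times the Mmp genes in both GFP libraries, and to 2.33 and 2.32 times in the Cre libraries. The difference was -0.42 on the log2 scale, and the libraries of a group differed by far less. The summed Mmp level was 643.0 and 633.2 CPM per kilobase in GFP and 711.4 and 734.6 in Cre. Both sums therefore moved, in opposite directions. The fall of the Timp sum lay in Timp3 (mean 946 in GFP and 552 in Cre), while Timp1 and Timp2 lay slightly higher in Cre. Mmp14 and Mmp2, which made up most of the Mmp sum, were not called in the main fit. The ratio was not tested and is a description, like the shares above. The size depends on the lengths used: it was -0.60 with counts not divided by length and -0.32 with merged exons. These are ratios of transcripts, and neither protein nor enzyme activity was measured.

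Of the ADAM proteases, only some of which Timp3 inhibits, Adam15 was the 1 of 7 tested genes that rose (0.26, edgeR adjusted p = 0.0131). This was 14.3% against 3.74% of all tested genes, and none fell. Exons of other genes cover 20.6% of its exon bases. Adam17, the enzyme that releases tumour necrosis factor, had 75.53 ± 1.40 and 78.75 ± 0.268 CPM (edgeR adjusted p = 0.672). Adam10, the sheddase of Notch, had 146.2 ± 6.50 and 152.7 ± 4.93 CPM (edgeR adjusted p = 0.642). The list had a median log2 fold change of 0.07, against -0.0045 over all tested genes.

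The ADAMTS proteases are secreted enzymes, some of which cut proteoglycans or trim procollagen. Among 11 tested genes 1 rose and 3 fell (9.09% and 27.3%, against 3.74% and 3.22% of all tested genes). The median log2 fold change was 0.03, against -0.0045 over all tested genes. Adamts9, a versican-cutting enzyme, fell from 17.28 ± 0.577 to 9.32 ± 0.888 CPM (-0.89, edgeR adjusted p = 1.22e-05). The aggrecanase gene Adamts5 fell by 0.33 and Adamts12 by 0.27 on the log2 scale, and the procollagen peptidase gene Adamts2 rose by 0.24. Adamts2 was not called by DESeq2, and neither it nor Adamts12 was called with scaling by library size alone. Adamts4, the other main aggrecanase, stood at -0.10 (edgeR adjusted p = 0.430). Exons of other genes overlap those of Adamts9.

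**Figure D4:**
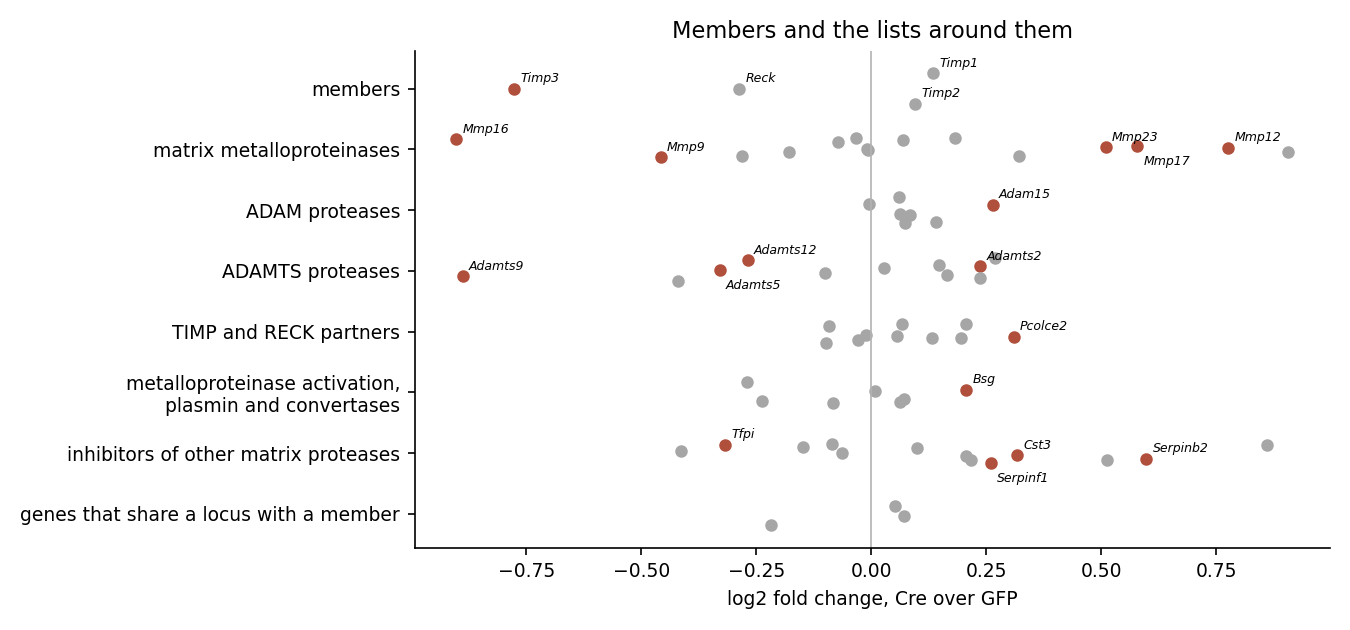
The log2 fold change of Cre over GFP (horizontal axis) of each tested gene, by list (rows); red and named are genes with an adjusted p under 0.05, and the 4 tested members are all named. Height within a row has no meaning. Timp3 stands at -0.78 among the members, and the protease lists spread to both sides of 0.

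Receptors and partners of the inhibitors were mostly without a call. Of 10 tested genes 1 rose (10.0%, against 3.74% of all tested genes) and none fell. It was Pcolce2 (0.31, edgeR adjusted p = 0.0474), a procollagen C-proteinase enhancer whose netrin-like domain resembles that of the Timp proteins. It was not called by DESeq2 or with scaling by library size alone. Its relative Pcolce stood at 0.06 (edgeR adjusted p = 0.669). Lrp1, the endocytic receptor that clears Timp3 from the matrix, had 3027 ± 180 and 2829 ± 129 CPM (-0.10, edgeR adjusted p = 0.392). Efemp1, a fibulin that binds Timp3, was close to the detection limit, with counts of 10 and 8 under GFP and 15 and 9 under Cre. Of the Wnt7 complex that contains Reck, Adgra2 (listed as Gpr124) had 174.7 ± 15.6 and 171.1 ± 4.67 CPM (-0.03, edgeR adjusted p = 0.856). Its ligand gene Wnt7a had no count, and the counts of Wnt7b were 1 and 1 under GFP and 5 and 5 under Cre.

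Among 7 tested genes of metalloproteinase activation and induction, Bsg rose (0.21, edgeR adjusted p = 0.0418), or 14.3% against 3.74% of all tested genes, and none fell. Bsg encodes the surface glycoprotein basigin, known as an inducer of metalloproteinases. The call did not hold with scaling by library size alone. Plasminogen, Plg, had no count.

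Of 13 tested genes listed with the inhibitors of other matrix proteases, 3 rose and 1 fell (23.1% and 7.69%, against 3.74% and 3.22% of all tested genes). The list took serpins by family, and Serpinf1 and Serpinh1 are not known as protease inhibitors. The median log2 fold change was 0.21, against -0.0045 over all tested genes. Serpinb2, an inhibitor of urokinase, rose from 10.87 ± 0.0118 to 16.47 ± 0.131 CPM (0.60, edgeR adjusted p = 0.00147). Of its exon bases, 12.4% are shared with other genes. The cystatin C gene Cst3 rose by 0.32 and Serpinf1, the gene of pigment epithelium-derived factor, by 0.26 on the log2 scale. The coagulation inhibitor gene Tfpi fell by 0.32 and was not called by DESeq2 or with scaling by library size alone.

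Genes with profiles most like those of the members were sought among tested genes with a mean of at least 20 CPM, by the distance between log2 CPM values over the 4 libraries, each centred on its own mean. For Timp3 the nearest were the large proteoglycan gene Vcan (distance 0.05), the pentraxin gene Ptx3 (0.06) and the protocadherin gene Pcdh18 (0.07). Their log2 fold changes were -0.75, -0.80 and -0.77, beside -0.78 for Timp3, a likeness that follows from how they were picked. For Timp1 they were Atf6b, Maged2 and Prdx5, with distances of 0.01. For Timp2 they were Aldh7a1, Hmg20b and Pycr1, also at 0.01, and for Reck Lnp, Trim59 and Arhgef6, at 0.04 to 0.06. With 4 libraries and about 7150 candidates, close profiles are easily found, and none of the 9 genes nearest to Timp1, Timp2 and Reck passed the test in all libraries.

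**Figure D5:**
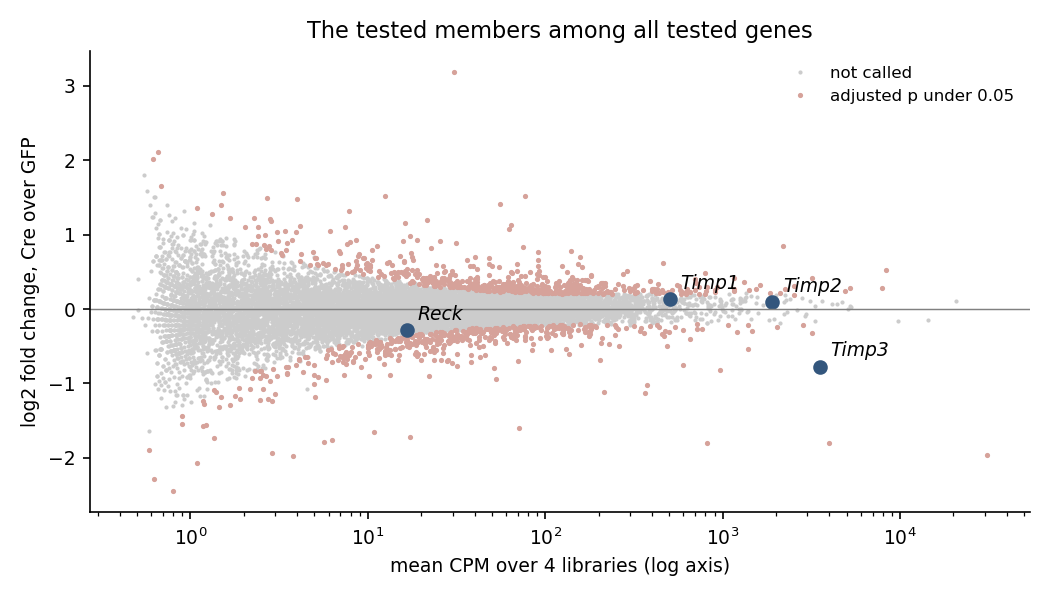
Log2 fold change of Cre over GFP (vertical axis) against the mean level in CPM (horizontal axis, log scale) for the 14483 tested genes; pale red dots have an adjusted p under 0.05 and blue points are the tested members. Timp3 lies at -0.78 among the most abundant genes, while Timp1, Timp2 and Reck lie within the grey cloud of genes without a call.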

How the data were processed

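Per the labels' protocols, 1 µg of total RNA went into each library, prepared with an Illumina TruSeq RNA kit. The authors deposited whole-number read counts per gene, not normalized, for 4 libraries. The submitters' processing notes name HISAT2 and the GRCm38 genome. Not given in the sources used here are the counting program, its annotation and strand setting, and the treatment of multi-mapped reads. Columns were matched to libraries by their titles.

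Counts were tested with edgeR 4.0.16 in R 4.3.3: filterByExpr (minimum count 10, minimum total 15), TMM scaling (factors 0.951 to 1.03), and a quasi-likelihood F-test on group alone. Benjamini-Hochberg adjustment ran over the 14483 tested genes, and 0.05 was the threshold. Standard errors are the log2 fold change divided by the square root of F. CPM values use TMM-scaled library totals. The common biological coefficient of variation was 4.73%. The prior degrees of freedom were 27.3, so the spread of each gene was drawn strongly toward that of other genes. Between the libraries of a group, the median chi-square of genes with over 200 counts was 3.36 (GFP) and 1.70 (Cre) times counting noise, so no library was a duplicate. Between the groups it was 3.09 to 5.03, and GFP replicate 1 and Cre replicate 1 (3.09) differed less than the GFP libraries did. A value below 3 counts was taken as not measurable, a limit that reflects counting error alone.

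Positions, lengths and shared exon bases came from GENCODE M21 and promoter windows from RefSeq (GRCm38.p6). All 5 members matched by symbol in both. In the lists, Adgra2, Ddc8 and Adgre1 were matched by NCBI gene number.

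Members and lists were chosen with earlier results of these data known. Genes named were the members, Setd2, up to 4 called genes per list with a mean of at least 1 CPM, a fixed set of partners, and the 3 nearest profiles per tested member (log2 CPM with a prior count of 2). Alternatives were DESeq2 1.42.0, limma-voom (limma 3.58.1), edgeR with median-of-ratios factors or with no scaling beyond library size, other filters, robust dispersion, a block on the replicate number, an adjusted p of 0.01, and leaving out each library. Chosen after the data were seen were messenger RNA genes alone without Lars2, whose count moves with ribosomal RNA, merged exon lengths, and the stromal marker sum without Col1a1 and Col1a2.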

Additional observations from a re-analysis of the deposited data

How the results depend on the processing

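The log2 fold changes of Timp1, Timp2, Timp3 and Reck kept their sign under all 13 alternatives run. Leaving out single libraries gave -0.81 to -0.74 for Timp3, 0.08 to 0.19 for Timp1, 0.04 to 0.15 for Timp2 and -0.43 to -0.15 for Reck. The Timp3 call was lost without GFP replicate 1 (adjusted p = 0.0524) and without GFP replicate 2 (adjusted p = 0.124). In these fits one GFP library remains and is assumed to vary like the Cre libraries. In all other alternatives run Timp3 passed, with adjusted p from 2.38e-40 (DESeq2) to 0.0187 (no low-count filter). Timp1, Timp2 and Reck passed in none, with lowest adjusted p of 0.162, 0.311 and 0.0885. No fold could be computed for Timp4 in any alternative, since its counts stay below the floor.

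Over all genes, 1009 calls became 532 with scaling by library size alone (349 higher, 183 lower, against 542 and 467), 376 in DESeq2 (238 and 138), 30 without a low-count filter and 477 at an adjusted p of 0.01. Leaving out single libraries gave 0 to 508 calls. Leaving out either GFP library ended the calls in the lists. Leaving out either Cre library also ended those of Adam15, Adamts2, Adamts12, Pcolce2, Bsg, Tfpi and Mmp9. The calls of Adamts5, Cst3 and Serpinf1 were lost without Cre replicate 2 as well. Without a low-count filter 2 rises remained among metalloproteinases, and no gene passed in the other lists. The causes of these losses were not tested. With the replicate number as a block 829 genes passed and Timp3 stood at -0.78 (adjusted p = 2.16e-08). The deviations of same-numbered libraries did not correlate (r = -0.009 over genes, 2 pairs). With 2 pairs, and GFP replicate 2 apart in ribosomal RNA, this cannot show whether the numbers pair the libraries. Of the genes named as risen or fallen, Pcolce2 (adjusted p = 0.0611) and Bsg (adjusted p = 0.071) did not pass with the block.

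The difference in share of Timp3 was -14.7 percentage points and became -12.5 with merged exon lengths. That of Timp1 (8.16) became 3.26 with raw counts and 7.21 with merged exons, and that of Timp2 (6.57) became 11.4 and 5.32. The log2 ratio of Timp to Mmp sums (-0.42) became -0.60 and -0.32. Their construction shows the cause, since lengths weight the genes. Of the 3 tested genes at the Timp loci and Adgra2 (Gpr124), none called, the sign turned in some fits. Without GFP replicates 1 and 2 in turn, Syn3 stood at -0.54 and 0.16, Syn1 at -0.074 and 0.22, Cep295nl (BC100451) at -0.084 and 0.19, and Gpr124 at -0.12 and 0.065, with 0.0058 for Gpr124 under scaling by library size alone. Depth limited Timp4, Efemp1 and Wnt7b.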
